A study of Mus musculus with 21 samples.

Results

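The AP-1 and ATF factors are basic leucine zipper (bZIP) proteins, and 9 of their genes (Fos, Fosb, Fosl1, Fosl2, Jun, Junb, Jund, Atf3 and Batf) were followed here among the 23420 genes of the count table. They were chosen by gene symbol, and all 9 symbols were present. RNA was measured in 21 libraries of sorted mouse inflammatory monocytes (IMs). The tumor IMs (TIMs) came from FVB mice with orthotopic KAL-LN2E1 (LN2E1) lung squamous carcinoma, given as 500000 cells per mouse into the lung, as 5 libraries from primary tumors and 5 from lymph node metastases. A further 5 TIM libraries came from the lungs of DBA2 mice given 300000 LN4K1 cells per mouse intravenously, LN4K1 being a line derived from KLN-205. The comparison cells were bone marrow (BM) IMs from naive mice without tumors, with 3 libraries from FVB and 3 from DBA2. The mice were adults of both sexes and the only treatment named was the tumor cell injection. The study's methods call the replicates technical, so the p-values measure the spread between these libraries only. Cell line, strain, injection route and tissue all differ between the LN2E1 and LN4K1 models and cannot be told apart.

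A FOS protein pairs with a JUN protein through the leucine zipper, and the dimer binds short AP-1 elements in promoters and enhancers. JUN proteins also pair with each other, whereas FOS proteins need a partner. In monocytes and macrophages, growth factors, cytokines and microbial products act through MAP kinases, which modify factors already bound at the Fos and Jun promoters, so that these genes are transcribed within minutes and the mRNA is lost quickly through AU-rich elements. ATF3 is a stress-induced factor known to restrain inflammatory cytokine genes in macrophages. BATF lacks a transactivation domain and binds with a JUN partner, often beside an IRF factor.

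In the edgeR test used here, Junb was the only one of the 9 genes that rose in all 3 comparisons of TIMs with BM IMs. It rose about 3-fold each time. Of all genes tested, 33.3% rose in primary tumor, 20.2% in lymph node and 13.9% in LN4K1 lung TIMs. With DESeq2, another test, Fosl2 and Jund also passed as higher in all 3 comparisons, where 36.6%, 23.6% and 19.3% of all genes were higher. The share that rose in all 3 was not counted. Fos, the most abundant of the 9 per kilobase in BM IMs, was called higher in none of the 3 comparisons, and in lymph node TIMs it fell 3.16-fold. In LN4K1 lung TIMs Fos passed only when both libraries numbered 3 were left out, a choice made after the data were seen. Fosl1, Fosl2, Jun and Atf3 also rose in primary tumor TIMs, and Batf rose in LN4K1 lung TIMs and did not pass in LN2E1 TIMs, with a difference between the models that passed its own test. Fosb passed in no comparison with all libraries kept. A change was counted as passed where the quasi-likelihood test of edgeR gave an adjusted p under 0.05 (Benjamini-Hochberg, across all genes tested), and every adjusted p below is from that test. In bulk RNA, fewer cells of a type and less RNA per cell cannot be told apart.

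Total counts lay between 80772922 and 101043568 per library. A library of lymph node TIMs (replicate 1) correlated with the mean of the rest of its group at r = 0.8574 across genes, and LN4K1 lung TIM replicate 3 at 0.9118, against 0.9578 to 0.9917 for the other libraries. The 7 monocyte and sort markers (Ptprc, Itgam, Ly6c2, Ccr2, Csf1r, Lyz2 and Cd14) were detected in every group, with a summed level of 40900 to 126000 CPM, the count scaled to a common library total. Ly6g and Siglecf, used to gate out other cells, were not analysed here. Markers of some other cells moved with the comparison of TIMs with BM IMs. The 5 neutrophil precursor markers summed to 2150 to 2680 CPM in BM IMs and 15 to 240 CPM in TIMs, and the 3 eosinophil markers measured to 413 to 1070 CPM and 0 to 66.7 CPM. The 6 macrophage markers summed to 748 to 1900 CPM in BM IMs and 2170 to 5300 CPM in TIMs. The 5 fibroblast markers summed to at most 0.359 CPM in BM IMs (Pdgfra at 0 in every FVB BM IM library), to 361 to 1100 CPM in primary tumor TIMs and to 0.836 to 87.1 CPM in lymph node TIMs. The 5 T cell markers summed to 0.668 to 2.49 CPM in BM IMs and 6.24 to 25.0 CPM in TIMs. The 6 squamous epithelium markers summed to 0.0798 to 2.05 CPM in BM IMs and 1.16 to 140 CPM in TIMs. Of the TIM libraries, LN4K1 lung TIM replicate 3 alone lay inside that BM IM range. Krt5, Krt14, Krt6a and Trp63 had 0 counts in every FVB BM IM library. So did Krt6a and Trp63 in every lymph node library, and Krt5 and Krt6a in every LN4K1 lung library. Other markers overlapped between BM IMs and TIMs. The 5 mature neutrophil markers measured summed to 698 to 1170 CPM in BM IMs and 573 to 1490 CPM in TIMs. The 5 B cell markers summed to 20.4 to 41.0 CPM and 10.1 to 35.6 CPM. The 6 dendritic cell markers summed to 78.2 to 109 CPM and 49.2 to 343 CPM. The part of all these cells in the results below was not tested. Lung tissue was minced and digested with collagenase and DNase at body temperature before sorting. The methods do not give this step for marrow or for lymph nodes. Tissue handling thus cannot be told apart from tumor, or from site between primary tumors and lymph nodes.

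Fos lies at chr12:85473890-85477273 on the forward strand of GRCm38 and has 4 exons. On the same chromosome and strand, Batf lies at chr12:85686669-85709087, 209395 bp from Fos, with the bZIP repressor gene Jdp2 between them. Jun (chr4:95049034-95052222, reverse strand), Junb (chr8:84974484-84978718, reverse) and Jund (chr8:70698949-70700616, forward) have a single exon in their longest transcript. Atf3 lies at chr1:191170296-191218039 (reverse), Fosb at chr7:19302696-19310051 (reverse), Fosl1 at chr19:5447547-5455946 (forward) and Fosl2 at chr5:32135801-32157842 (forward). Reads carried no strand. Of the exon bases of Fosl1, 57.2% overlap Ccdc85b on the other strand, and of those of Jund, 52.6% overlap the antisense gene Gm11175, so counts of these genes are uncertain. The shared part was 7.28% for Jun, 7.52% for Junb and 0 for the others.

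The 250 bases before the RefSeq start of Fos, Jun, Junb and Atf3 (GRCm38.p6) are shown because these genes had the highest levels and took different courses in TIMs. Capitals mark a CRE core, TGACG on either strand (the start of a cAMP response element, bound by CREB and ATF factors), or, in Jun, the letters TGACATCA, an AP-1-like element of its promoter.
Fos, chr12:85473640-85473889, forward strand: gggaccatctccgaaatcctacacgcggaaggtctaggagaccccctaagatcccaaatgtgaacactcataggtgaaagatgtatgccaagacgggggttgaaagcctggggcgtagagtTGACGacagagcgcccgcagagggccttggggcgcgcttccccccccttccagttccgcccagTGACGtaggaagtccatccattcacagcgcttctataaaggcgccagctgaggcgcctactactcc
Jun, chr4:95052223-95052472, reverse strand: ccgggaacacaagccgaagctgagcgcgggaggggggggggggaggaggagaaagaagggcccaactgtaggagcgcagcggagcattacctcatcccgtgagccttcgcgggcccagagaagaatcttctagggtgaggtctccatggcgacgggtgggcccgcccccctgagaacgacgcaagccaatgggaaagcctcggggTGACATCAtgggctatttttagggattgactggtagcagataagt
Junb, chr8:84978749-84978998, reverse strand: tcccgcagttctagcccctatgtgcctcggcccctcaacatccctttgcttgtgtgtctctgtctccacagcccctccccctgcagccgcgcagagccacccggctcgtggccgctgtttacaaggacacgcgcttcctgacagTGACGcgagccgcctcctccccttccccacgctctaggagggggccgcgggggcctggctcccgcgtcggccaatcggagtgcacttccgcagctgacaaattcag
Atf3, chr1:191183334-191183583, reverse strand: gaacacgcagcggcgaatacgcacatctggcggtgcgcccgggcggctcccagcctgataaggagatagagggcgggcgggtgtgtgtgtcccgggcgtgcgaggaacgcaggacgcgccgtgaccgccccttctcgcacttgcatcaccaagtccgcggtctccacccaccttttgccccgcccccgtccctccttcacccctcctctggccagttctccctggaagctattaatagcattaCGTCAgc
Counting the first transcribed base as 0, the CRE core began at -129 and -66 in Fos, at -106 in Junb and, on the opposite strand, at -7 in Atf3, and TGACATCA began at -45 in Jun. Of the 8 genes with a RefSeq promoter, 5 held TGACG (also Fosb at -60 and Batf at -98). In windows of the same length (250 bases before the start and 50 from it), TGACG was found in 20.8% of 32851 mouse promoters and TGACATCA in 3.62%. The full CRE (TGACGTCA, 1.79% of promoters), the AP-1 site TGANTCA (7.81%), the CArG box (1.63%) and TTCNNNGAA (8.3%) were not among the letters of these 8 windows, searched on both strands. Bases further upstream were not searched, so the windows do not show whether such sites lie there. Fosl1 had no entry. The 250 bases before the RefSeq start of Jund (chr8:70697489-70697738) end before the locus given above begins, at chr8:70698949. The Jund window thus does not adjoin that start. These are matches of letters, and binding was not measured.

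**Figure D1:**
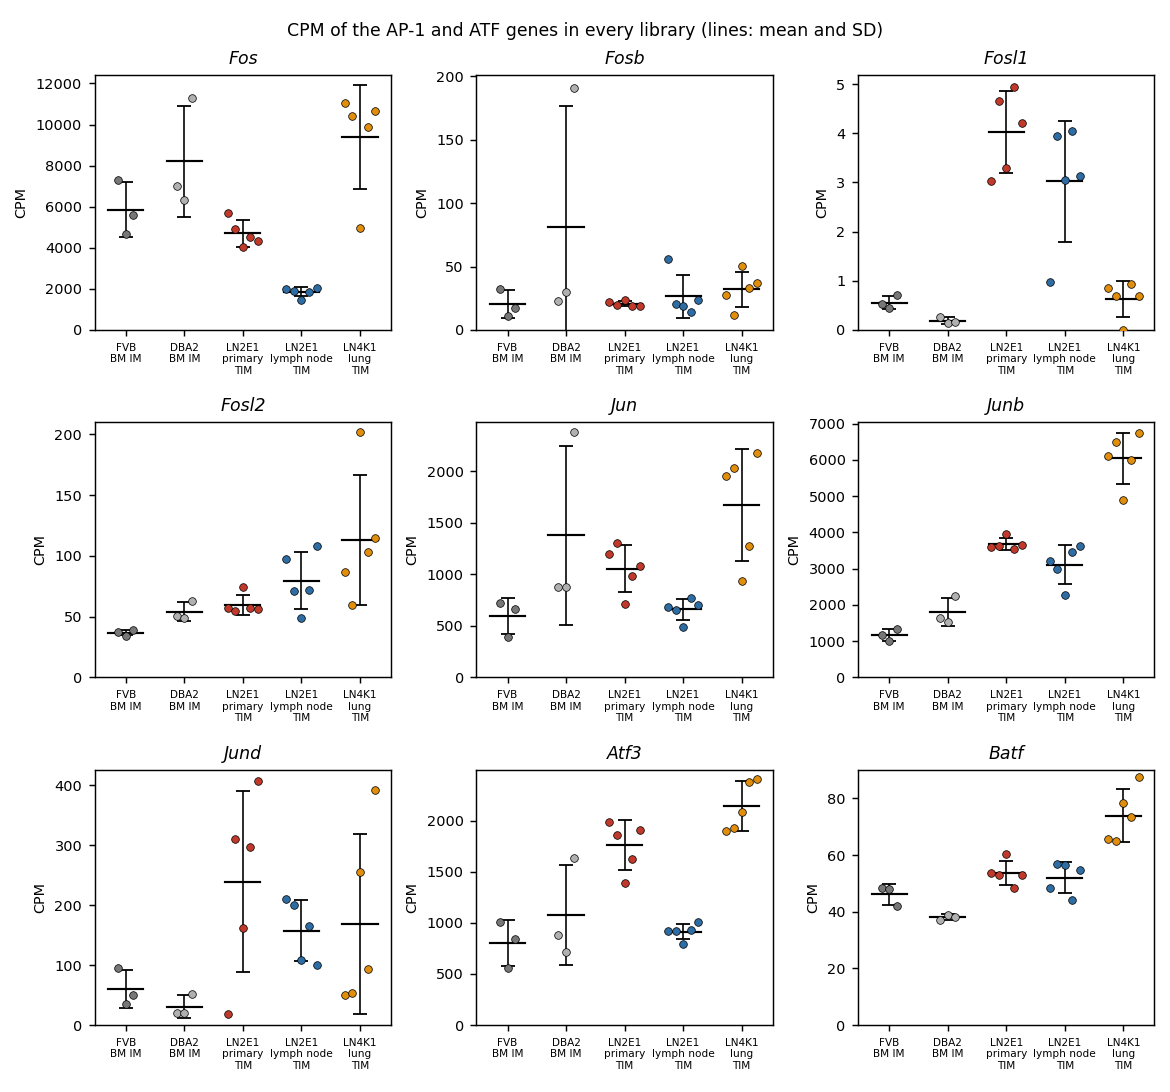
CPM of each of the 9 genes in each library (points, left to right by replicate number), with the group mean and SD, on a linear axis that starts at 0 and differs between panels. Junb in every TIM library lay above every BM IM library, and Fos in the 5 lymph node TIM libraries lay below all others.

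Among the FOS family, Fos took between 0.144% and 1.31% of all counts in a library. In FVB BM IMs its level was 7300, 4654 and 5598 CPM. In primary tumor TIMs it was 5712, 4915, 4043, 4513 and 4344 CPM, which overlapped FVB BM IMs. In lymph node TIMs it was 1995, 1918, 1477, 1846 and 2026 CPM. All 5 lymph node libraries thus lay below all FVB BM IM and primary tumor libraries. Fos fell by 1.66 on the log2 scale from FVB BM IMs to lymph node TIMs (SE 0.158, adjusted p = 3.24e-05) and by 1.33 from primary tumor to lymph node TIMs (SE 0.117, adjusted p = 0.000167), lower in 5 of 5 libraries both times. The difference between primary tumor TIMs and FVB BM IMs was -0.34 (SE 0.154, adjusted p = 0.0839). It passed without FVB BM IM replicate 2 (-0.45, adjusted p = 0.0387) or without primary tumor TIM replicate 1 (-0.41, adjusted p = 0.0412).

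In DBA2 BM IMs Fos stood at 7005, 6308 and 11290 CPM, and in LN4K1 lung TIMs at 11070, 10410, 4965, 9867 and 10670 CPM. The groups overlapped through DBA2 BM IM replicate 3, the highest library of either group, and LN4K1 lung TIM replicate 3, the lowest. The log2 difference was 0.12 (SE 0.283, adjusted p = 0.805). Without both of these libraries, an alternative chosen after the data were seen, it was 0.58 (SE 0.0930, adjusted p = 0.00231). Leaving out the highest BM IM library and the lowest TIM library widens the difference by the choice itself. With 1 library left out at a time, Fos passed in 0 of 8 fits (lowest adjusted p = 0.263).

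Fosb encodes a close relative of FOS that is induced with it. Its level was 32.7, 10.8 and 17.6 CPM in FVB BM IMs. It spanned 18.8 to 23.7 CPM in primary tumors and 14.3 to 56.2 CPM in lymph nodes, and these groups overlapped. In DBA2 BM IMs it was 23.2, 30.0 and 191.2 CPM, so that 1 library stood far above the others, and LN4K1 lung TIMs spanned 11.8 to 50.5 CPM. Its log2 difference was 0.003 in primary tumors (SE 0.290, adjusted p = 0.992), 0.39 in lymph nodes (SE 0.488, adjusted p = 0.582) and -1.43 in LN4K1 lungs (SE 0.665, adjusted p = 0.151), the last becoming 0.18 without DBA2 BM IM replicate 3 (adjusted p = 0.83). In primary tumors Fosb passed only without FVB BM IM replicate 1, the highest of its group, at 0.55 (SE 0.203, adjusted p = 0.0487).

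Fosl1 and Fosl2 encode the FOS-related antigens, whose proteins lack the strong transactivation domain of FOS. Fosl1 had the lowest level of the 9 genes in BM IMs, at 0.523, 0.438 and 0.706 CPM in FVB mice. Primary tumor TIMs reached 3.04, 4.66, 3.29, 4.95 and 4.21 CPM. Lymph node TIMs reached 0.981, 3.94, 3.04, 4.04 and 3.12 CPM, and neither overlapped FVB BM IMs. The rise was 2.83 on the log2 scale in primary tumors (SE 0.326, adjusted p = 6.1e-05), the largest among the 9 genes in that comparison, and 2.44 in lymph nodes (SE 0.697, adjusted p = 0.0203). The lymph node call was lost without FVB BM IM replicate 1 (adjusted p = 0.0843) or replicate 2 (adjusted p = 0.0937). In the LN4K1 model Fosl1 went from 0.140 to 0.267 CPM in BM IMs to 0 to 0.931 CPM in TIMs (log2 difference 1.67, SE 1.22, adjusted p = 0.364), and without LN4K1 lung TIM replicate 3, the library with 0 counts, the difference was 1.99 (adjusted p = 0.0237). Ccdc85b, which shares exon bases with Fosl1, had a median of 38.2 CPM in FVB BM IMs against 17.5 CPM (primary tumor) and 18.5 CPM (lymph node) in LN2E1 TIMs, and of 29.1 CPM in both DBA2 BM IMs and LN4K1 lung TIMs. In replicate order, the fibroblast markers summed to 523, 1020, 361, 1100 and 685 CPM in primary tumor TIMs. In lymph node TIMs they summed to 0.836, 87.1, 28.4, 69.6 and 4.17 CPM. The part of overlapping reads, or of fibroblasts and other cells, in the Fosl1 values was not tested.

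Fosl2 was present in every library. FVB BM IMs had 37.8, 34.5 and 38.7 CPM, and primary tumor TIMs, where Fosl2 rose, 57.0, 54.4, 74.5, 56.8 and 56.3 CPM (log2 change 0.67, SE 0.128, adjusted p = 0.0014). It reached 97.3, 71.3, 48.8, 71.9 and 108.4 CPM in lymph node TIMs (1.10, SE 0.244, adjusted p = 0.00575). All 10 LN2E1 libraries lay above all 3 FVB BM IM libraries. In LN4K1 lung TIMs, at 59.4 to 201.7 CPM against 48.8 to 63.0 CPM in DBA2 BM IMs, the difference was 0.99 (SE 0.342) and missed the threshold (adjusted p = 0.0628). It passed when LN4K1 lung TIM replicate 2 (1.16, adjusted p = 0.0217) or replicate 3 (0.67, adjusted p = 0.0278) was left out. With DESeq2 the difference was 0.998 (SE 0.334) and passed (DESeq2 adjusted p = 0.0112).

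Among the JUN family, Junb encodes a protein with weaker transactivation than JUN. Its level in FVB BM IMs was 1170, 996.1 and 1328 CPM. In primary tumor TIMs it was 3589, 3617, 3957, 3544 and 3640 CPM, and in lymph node TIMs 3217, 2986, 2264, 3473 and 3621 CPM. Every LN2E1 library was above every FVB BM IM library. The rise was 1.63 on the log2 scale in primary tumors (SE 0.115, adjusted p = 2.73e-06), a 3.10-fold increase, and 1.42 in lymph nodes (SE 0.174, adjusted p = 0.00017), a 2.67-fold increase. DBA2 BM IMs had 1637, 1534 and 2240 CPM and LN4K1 lung TIMs 6103, 6507, 4906, 6011 and 6729 CPM, again without overlap, a 3.18-fold increase (log2 change 1.67, SE 0.170, adjusted p = 0.000105). With 1 library left out at a time, Junb passed each of the 8 fits in each of these comparisons. The change in LN2E1 primary tumors minus that in LN4K1 lungs was -0.02 (SE 0.194, adjusted p = 0.993).

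Jun, which encodes the main activating partner of FOS, took a different course. Its level was 725.7, 395.4 and 666.4 CPM in FVB BM IMs. In primary tumor TIMs it was 1199, 1301, 712.8, 984.0 and 1081 CPM, with replicate 3 inside the BM IM range. The rise was 0.80 (SE 0.233, adjusted p = 0.0139). In lymph node TIMs Jun was at 683.3, 651.5, 488.8, 769.0 and 703.1 CPM, which overlapped FVB BM IMs (0.14, SE 0.209, adjusted p = 0.638). It was lower there than in primary tumor TIMs (log2 difference -0.67, SE 0.165, adjusted p = 0.0234), although the call was lost without primary tumor TIM replicate 1 (adjusted p = 0.0508) or replicate 2 (adjusted p = 0.0531). In the LN4K1 model DBA2 BM IMs had 873.7, 879.6 and 2375 CPM and TIMs 1955, 2031, 929.8, 1275 and 2173 CPM. The ranges overlapped (0.20, SE 0.392, adjusted p = 0.756). With 1 library left out at a time, Jun passed in 0 of 8 fits (lowest adjusted p = 0.125). Without both libraries numbered 3, the highest BM IM and the lowest TIM library, the difference was 1.01 (SE 0.201, adjusted p = 0.00704). That choice was made after the data were seen and itself widens the difference.

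Jund encodes the JUN protein that is usually present in resting cells and is not strongly induced. Its libraries spread widely. In primary tumor TIMs Jund was at 18.6, 310.9, 162.5, 297.2 and 406.6 CPM against 95.5, 34.3 and 50.2 CPM in FVB BM IMs, with replicate 1 below all BM IM libraries and the other 4 above them. The difference was 1.98 (SE 0.796, adjusted p = 0.0547) and, without replicate 1, 2.28 (SE 0.399, adjusted p = 0.00134). In lymph node TIMs the levels were 210.1, 201.1, 109.2, 165.3 and 100.7 CPM. All 5 lay above FVB BM IMs, a rise of 1.39 (SE 0.369, adjusted p = 0.0143) that was lost without FVB BM IM replicate 2 (adjusted p = 0.0576) or replicate 3 (adjusted p = 0.0544). LN4K1 lung TIMs spanned 50.3 to 392.4 CPM and DBA2 BM IMs 19.5 to 52.6 CPM (2.37, SE 0.774, adjusted p = 0.0517). This difference passed with DESeq2 (2.38, SE 0.843, DESeq2 adjusted p = 0.0177). In edgeR it passed in a fit over all 5 groups (adjusted p = 0.0273) and with 2 other filters (adjusted p = 0.0497 and 0.0421).

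Atf3 stood at 1008, 557.0 and 839.5 CPM in FVB BM IMs. Primary tumor TIMs had 1989, 1864, 1391, 1629 and 1911 CPM, whereas lymph node TIMs had 921.1, 916.3, 794.1, 934.6 and 1004 CPM. The primary tumor libraries lay above both other groups, and the lymph node libraries lay inside the BM IM range. Atf3 rose by 1.11 in primary tumor TIMs (SE 0.192, adjusted p = 0.000794), differed by 0.19 in lymph node TIMs (SE 0.177, adjusted p = 0.451) and was 1.91-fold lower in lymph node than in primary tumor TIMs (log2 difference -0.93, SE 0.108, adjusted p = 0.000631). DBA2 BM IMs had 881.1, 714.2 and 1633 CPM, and LN4K1 lung TIMs had 1898, 1932, 2087, 2382 and 2407 CPM, without overlap. That rise was 0.91 (SE 0.252, adjusted p = 0.0269). It passed in 4 of 8 fits that left out 1 library and was lost without DBA2 BM IM replicate 1 (adjusted p = 0.108), DBA2 BM IM replicate 2 (adjusted p = 0.0956), LN4K1 lung TIM replicate 4 (adjusted p = 0.0579) or LN4K1 lung TIM replicate 5 (adjusted p = 0.0591).

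Batf varied little within groups. In DBA2 BM IMs it was at 37.1, 38.9 and 38.3 CPM, and in LN4K1 lung TIMs at 65.7, 64.9, 78.2, 73.3 and 87.6 CPM. All 5 TIM libraries were higher, by 0.88 on the log2 scale (SE 0.127, adjusted p = 0.000911). In the LN2E1 model FVB BM IMs had 48.5, 48.1 and 41.9 CPM, primary tumor TIMs 53.6, 53.0, 60.4, 48.3 and 53.0 CPM and lymph node TIMs 48.4, 56.8, 56.3, 44.1 and 54.8 CPM. These ranges overlapped, with differences of 0.20 in primary tumors (SE 0.100, adjusted p = 0.112) and 0.18 in lymph nodes (SE 0.140, adjusted p = 0.37). With DESeq2, Batf passed as higher in primary tumors, by 0.25 (SE 0.115, DESeq2 adjusted p = 0.0437). The Batf change in LN2E1 primary tumors was smaller than that in LN4K1 lungs (interaction -0.66, SE 0.147, adjusted p = 0.00476), and it passed each of the 16 fits with 1 library left out. The 2 BM IM groups did not overlap either, DBA2 being lower (log2 difference -0.25, SE 0.109, adjusted p = 0.134).

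**Figure D2:**
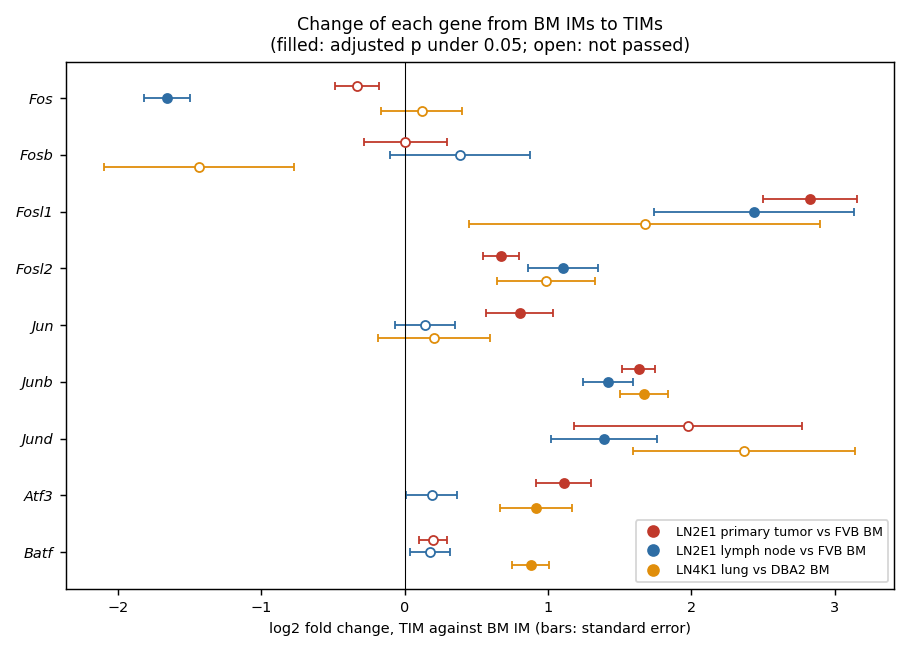
Log2 fold change of each gene from BM IMs to TIMs with its standard error, for LN2E1 primary tumors (red), LN2E1 lymph nodes (blue) and LN4K1 lungs (orange), filled where the adjusted p was under 0.05. Junb is filled in all 3 comparisons, between 1.42 and 1.67, and Fos is filled only for lymph nodes, at -1.66.

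Counted together, 5 of the 9 genes rose in LN2E1 primary tumor TIMs (Fosl1, Fosl2, Jun, Junb and Atf3) and 0 fell, where 33.3% of all genes tested rose and 28.6% fell. In lymph node TIMs 4 rose (Fosl1, Fosl2, Junb and Jund) and 1 fell (Fos), where 20.2% of all genes rose and 17.2% fell. In LN4K1 lung TIMs 3 rose (Junb, Atf3 and Batf) and 0 fell, where 13.9% of all genes rose and 11.0% fell. The median log2 difference over the 9 genes was 0.80, 0.39 and 0.91 in these comparisons, and over all genes tested 0.08, -0.04 and 0.03. The first 2 share their FVB BM IM libraries. The TIM and BM IM libraries did not overlap for 4 of the 9 genes in primary tumors, 5 in lymph nodes and 3 in LN4K1 lungs, where that held for 58.1%, 42.9% and 34.8% of all genes tested. The study called a gene differentially expressed where DESeq2 gave an adjusted p under 0.0001 and the shrunken log2 change exceeded 1 in size. With these thresholds applied to the edgeR test, Fosl1 and Junb passed in primary tumors (2 of 9, both higher, where 7.72% of all genes tested were called higher and 5.18% lower) and Fos in lymph nodes (1 of 9, lower, where 4.01% were called higher and 1.70% lower). In LN4K1 lungs 0 of 9 passed, where 1.21% of all genes were called higher and 1.76% lower, and the adjusted p of Junb was 0.000105. The count depends on the test. With DESeq2 and shrunken fold changes, an alternative added after the data were seen, 3 genes were called higher in primary tumors (Fosl1, Junb and Atf3), 2 higher (Fosl2 and Junb) and 1 lower (Fos) in lymph nodes, and 1 higher in LN4K1 lungs, namely Junb (log2 change 1.66, SE 0.169, DESeq2 adjusted p = 1.96e-21). Of all genes, 18.8%, 11.5% and 6.36% were then called higher and 8.14%, 5.85% and 5.06% lower.

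Between the LN2E1 sites, Fos, Jun and Atf3 were lower in lymph node than in primary tumor TIMs, 3 of 9 genes, and 0 were higher, where 5.55% of all genes tested were lower and 6.15% higher. The median difference was -0.40 over the 9 genes and -0.03 over all genes. Junb differed by -0.23 (SE 0.117, adjusted p = 0.252) and Batf by -0.03 (SE 0.101, adjusted p = 0.877). The values were -0.40 for Fosl1 (SE 0.397, adjusted p = 0.579), 0.42 for Fosl2 (SE 0.194, adjusted p = 0.197), 0.37 for Fosb (SE 0.320, adjusted p = 0.515) and -0.60 for Jund (SE 0.569, adjusted p = 0.567). Fos, Jun and Atf3 are early response genes, as are Fosb and Junb, for which no difference was detected.

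Without a tumor, DBA2 BM IMs had higher Fosl2 (log2 difference 0.57, SE 0.138, adjusted p = 0.0232) and Junb (0.65, SE 0.172, adjusted p = 0.0311) than FVB BM IMs, 2 of 9 genes, where 11.5% of all genes tested were higher and 9.57% lower. Fosl2 passed in 3 of 6 and Junb in 2 of 6 fits that left out 1 library. DBA2 BM IM replicate 3 was the highest of its group for Fos, Fosb, Fosl2, Jun, Junb, Jund and Atf3. Without it the adjusted p was 0.0952 for Fosl2 (0.45) and 0.099 for Junb (0.47). Without FVB BM IM replicate 1 it was 0.0656 for Fosl2 and 0.0847 for Junb, without FVB BM IM replicate 2 it was 0.0988 and 0.121, and without DBA2 BM IM replicate 1 it was 0.0535 for Junb. Jun was higher in all 3 DBA2 libraries (1.23, SE 0.404) with an adjusted p of 0.0625. The difference between the LN2E1 primary tumor and LN4K1 lung changes passed for Batf alone, 1 of 9 genes, where 13.3% of all genes tested had the lower change in LN2E1 and 13.2% the higher. The values for the other genes were -0.44 for Fos (adjusted p = 0.377), 1.45 for Fosb (adjusted p = 0.196), 1.17 for Fosl1 (adjusted p = 0.467), -0.29 for Fosl2 (adjusted p = 0.612), 0.61 for Jun (adjusted p = 0.383), -0.37 for Jund (adjusted p = 0.863) and 0.21 for Atf3 (adjusted p = 0.684).

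Levels of different genes were compared as CPM per kilobase of exon. The 9 genes together summed to a median of 3620 CPM per kb in FVB BM IMs (2850 to 4410), 4420 in DBA2 BM IMs (4010 to 7370), 4950 in primary tumor TIMs (4460 to 5350), 3070 in lymph node TIMs (2250 to 3240) and 8870 in LN4K1 lung TIMs (5740 to 9570). Fos made up most of that sum in BM IMs. In BM IMs Fos ranked between 3 and 11 among all genes per kilobase, in primary tumor TIMs between 12 and 20 and in lymph node TIMs between 51 and 57. In LN4K1 lung TIMs it ranked between 3 and 22.

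The make-up of the sum differed between BM IMs and TIMs, with a smaller share from the FOS family and a larger share from the JUN family. A share of a sum can fall while the gene's own level does not. Mean Fos was 9396 CPM in LN4K1 lung TIMs against 8203 CPM in DBA2 BM IMs, and Fos passed as lower only in lymph node TIMs. The Fos family (Fos, Fosb, Fosl1 and Fosl2) took a median of 69.5% in FVB BM IMs (65.9% to 70.6%), 40.6% in primary tumor TIMs (37.6% to 45.6%) and 28.3% in lymph node TIMs (25.6% to 28.4%). It took 67.2% in DBA2 BM IMs (65.6% to 67.6%) and 49.9% in LN4K1 lung TIMs (37.3% to 52.8%). All 15 TIM libraries lay below all 6 BM IM libraries. The Jun family (Jun, Junb and Jund) took 20.2% in FVB BM IMs, 42.7% in primary tumor TIMs, 56.7% in lymph node TIMs, 23.7% in DBA2 BM IMs and 39.4% in LN4K1 lung TIMs. Per kilobase, Junb stood to Fos at a median ratio of 0.219 in FVB BM IMs (0.164 to 0.243), 0.803 in primary tumor TIMs (0.642 to 1.0) and 1.65 in lymph node TIMs (1.57 to 1.92). The ratio was 0.239 in DBA2 BM IMs (0.203 to 0.249) and 0.639 in LN4K1 lung TIMs (0.563 to 1.01). In lymph node TIMs there was thus more Junb than Fos RNA per kilobase in every library. These shares carry no test. With the longest transcript as gene length, 16 shares of a gene in a group moved by at least the SD between libraries and 29 did not. In lymph node TIMs the mean share was then 25.6% for Fos and 49.9% for Junb, against 27.1% and 46.2%.

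**Figure D3:**
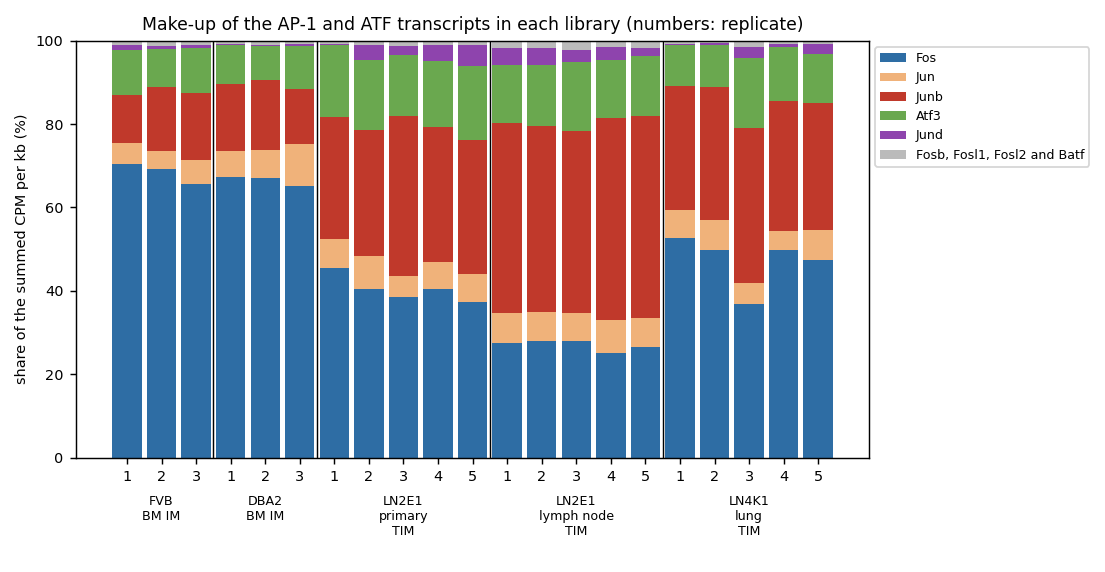
Share of each gene in the summed CPM per kilobase of the 9 genes (%), 1 stacked bar per library, with replicate numbers below. Fos takes 65.1% to 70.4% in BM IM libraries and 25.2% to 28.0% in lymph node TIM libraries, where Junb takes 43.7% to 48.6%.

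Other genes of the pathway came from lists by role. Their counts stand beside the 33.3%, 20.2% and 13.9% of all genes tested that rose in primary tumor, lymph node and LN4K1 lung TIMs, and the 28.6%, 17.2% and 11.0% that fell. Of the 18 further bZIP factors, 10 rose and 5 fell in primary tumor TIMs, 8 rose and 1 fell in lymph node TIMs, and 6 rose and 2 fell in LN4K1 lung TIMs. Their median log2 differences were 0.46, 0.59 and 0.43. Creb5, a CREB and ATF family factor, was at or under 3 counts in every BM IM library (at most 0.0317 CPM) and at 5.59 to 10.9 CPM in primary tumor, 2.81 to 8.83 CPM in lymph node and 2.43 to 5.81 CPM in LN4K1 lung TIMs, with adjusted p values of 1.43e-06, 0.000225 and 0.000248. Crem, whose short product ICER represses CRE sites, rose by 4.02 (SE 0.20, adjusted p = 3.9e-07), 4.69 (SE 0.22, adjusted p = 5.3e-07) and 2.31 (SE 0.30, adjusted p = 0.000474). Maff, a small MAF protein without a transactivation domain, rose by 4.57, 4.80 and 1.88 (adjusted p = 1.8e-05, 2.36e-05 and 0.0103).

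Among 8 genes listed as AP-1 partners, most of them factors at composite elements, 6 rose and 1 fell (Cops5) in primary tumor TIMs. In lymph node TIMs 6 rose and in LN4K1 lung TIMs 1 rose. The medians were 0.99, 1.08 and 0.16. Smad3, a TGF-β signal transducer, rose by 1.64 in primary tumors (SE 0.22, adjusted p = 0.000148) and 1.30 in lymph nodes (SE 0.36, adjusted p = 0.018) and differed by 0.66 in LN4K1 lungs (SE 0.29, adjusted p = 0.126). The NFAT factors Nfatc2 and Nfatc3, which bind beside AP-1 at cytokine genes, rose by 1.52 (adjusted p = 0.00147) and 1.31 (adjusted p = 0.00408) in lymph nodes and by 1.01 (adjusted p = 0.00562) and 0.87 (adjusted p = 0.0113) in primary tumors, and differed by 0.02 (adjusted p = 0.976) and -0.36 (adjusted p = 0.124) in LN4K1 lungs.

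Of 18 kinases upstream of AP-1, 6 rose and 2 fell in primary tumors, 5 rose and 0 fell in lymph nodes, and 3 rose and 1 fell in LN4K1 lungs, with medians of 0.03, 0.23 and 0.24. The shares that rose, 33.3%, 27.8% and 16.7%, were near those over all genes. Map3k8, the kinase that links Toll-like and TNF receptors to ERK, rose by 1.02, 1.37 and 1.51 (adjusted p = 3.96e-05, 7.35e-05 and 0.00144). Map2k4, which activates JNK, the kinase of JUN, rose by 1.53, 1.61 and 0.48 (adjusted p = 5.44e-06, 1.78e-05 and 0.0118). Map2k6, which activates p38, fell by 1.73 in primary tumors (adjusted p = 8.17e-05) and stood at -1.33 in lymph nodes (adjusted p = 0.0643) and -0.34 in LN4K1 lungs (adjusted p = 0.445). A list of 5 genes that act at serum response elements held Srf, its coactivator gene Mkl1 and the ETS factor genes Elk1, Elk3 and Elk4. Of these 5, 3 rose in primary tumors (Elk1, Elk3 and Elk4), the same 3 in lymph nodes and Elk3 in LN4K1 lungs, with 0 falling. The medians were 1.14, 1.10 and 0.21. Elk3 rose by 1.14, 1.10 and 0.90 (adjusted p = 2.29e-05, 0.00158 and 0.00167). Elk4 rose by 1.14 and 1.71 (adjusted p = 0.000536 and 0.000329) and Elk1 by 1.58 and 1.11 (adjusted p = 0.000254 and 0.0459) in the LN2E1 sites, and in LN4K1 lungs they differed by 0.11 (adjusted p = 0.836) and 0.21 (adjusted p = 0.744).

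Of 6 proteins that bind AU-rich elements, such as those in Fos mRNA, 2 rose and 1 fell in primary tumors, 1 rose and 1 fell in lymph nodes, and 3 rose in LN4K1 lungs, with medians of 0.77, 0.19 and 0.92. In the LN2E1 sites 33.3% and 16.7% thus rose, near the shares over all genes. Zfp36l1, which speeds the decay of such mRNA, rose by 4.30, 3.94 and 4.21 (adjusted p = 2.32e-06, 1.43e-05 and 7.98e-06). Zfp36, its better known relative tristetraprolin, rose by 1.17 in primary tumors (adjusted p = 0.000107) and 1.01 in LN4K1 lungs (adjusted p = 0.0433) and differed by 0.40 in lymph nodes (adjusted p = 0.0616). Hnrnpd, which binds the same elements, fell by 2.35 (adjusted p = 0.00152) in primary tumors and by 2.01 (adjusted p = 0.0112) in lymph nodes and stood at -0.39 in LN4K1 lungs (adjusted p = 0.565).

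Of 18 genes known as AP-1 targets, 15 rose and 0 fell in primary tumors, 13 rose and 1 fell (Spp1) among 17 tested in lymph nodes, and 13 rose and 0 fell in LN4K1 lungs. Their median log2 differences were 3.20, 2.82 and 1.98. Timp1, an inhibitor of matrix proteases, rose by 9.01 (SE 0.65, adjusted p = 4.63e-06), 7.69 (SE 0.953, adjusted p = 0.000178) and 7.67 (SE 1.04, adjusted p = 0.000614), from at most 0.275 CPM in BM IMs. Mmp13, a collagenase, had 0 counts in FVB BM IMs and at most 0.0513 CPM in DBA2 BM IMs, and reached 9.92 to 24.2 CPM in primary tumor, 3.06 to 9.46 CPM in lymph node and 0.603 to 1.90 CPM in LN4K1 lung TIMs (adjusted p = 2.44e-06, 0.000113 and 0.0111). Fibroblasts are known to express both genes, and the fibroblast markers were highest in primary tumor TIMs (361 to 1100 CPM), where Timp1 and Mmp13 were also highest. That cell type's part in them was not tested. Spp1, which encodes osteopontin and fell in lymph nodes by 0.74 (adjusted p = 0.0212), was chosen after its values were seen. In lymph node against primary tumor TIMs, 2 targets were higher, the urokinase receptor gene Plaur (0.85, adjusted p = 0.00618) and Tnf (0.55, adjusted p = 0.00855), and 6 were lower, among them Timp1 (-1.30, adjusted p = 0.00362) and Mmp13 (-1.64, adjusted p = 0.0105). The median over the 18 targets was -0.73, and of all genes tested 6.15% were higher and 5.55% lower in this comparison.

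Of 14 early response and heat shock genes known to rise when tissue is digested for sorting, 9 rose and 3 fell in primary tumors, 7 rose and 1 fell in lymph nodes, and 5 rose and 1 fell in LN4K1 lungs, with medians of 0.65, 0.52 and 0.76. Ier3, an early response gene, rose by 4.05, 2.88 and 5.22 (adjusted p = 5.35e-05, 0.000189 and 2.34e-06). The inducible HSP70 gene Hspa1a rose by 4.88 (adjusted p = 2.52e-05) and 4.33 (adjusted p = 2.64e-06) in the LN2E1 sites and stood at 2.15 (adjusted p = 0.0935) in LN4K1 lungs. Hspa1b, a near copy whose reads may be split with it, gave 4.77, 4.17 and 1.96 (adjusted p = 2.83e-05, 2.81e-06 and 0.0707). Between the LN2E1 sites, 4 of the 14 were lower in lymph node TIMs, namely Egr1 (-1.55, adjusted p = 0.000976), Ier3 (-1.18, adjusted p = 0.00581), Dusp1 (-0.56, adjusted p = 0.0223) and Btg2 (-0.68, adjusted p = 0.000942), and 1 was higher, the heat shock gene Dnajb1 (0.33, adjusted p = 0.015). Of all genes tested, 5.55% were lower and 6.15% higher between these sites. Those 4 genes were lower in the same comparison as Fos, Jun and Atf3. The part of tissue handling in the AP-1 and ATF values was not tested.

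**Figure D4:**
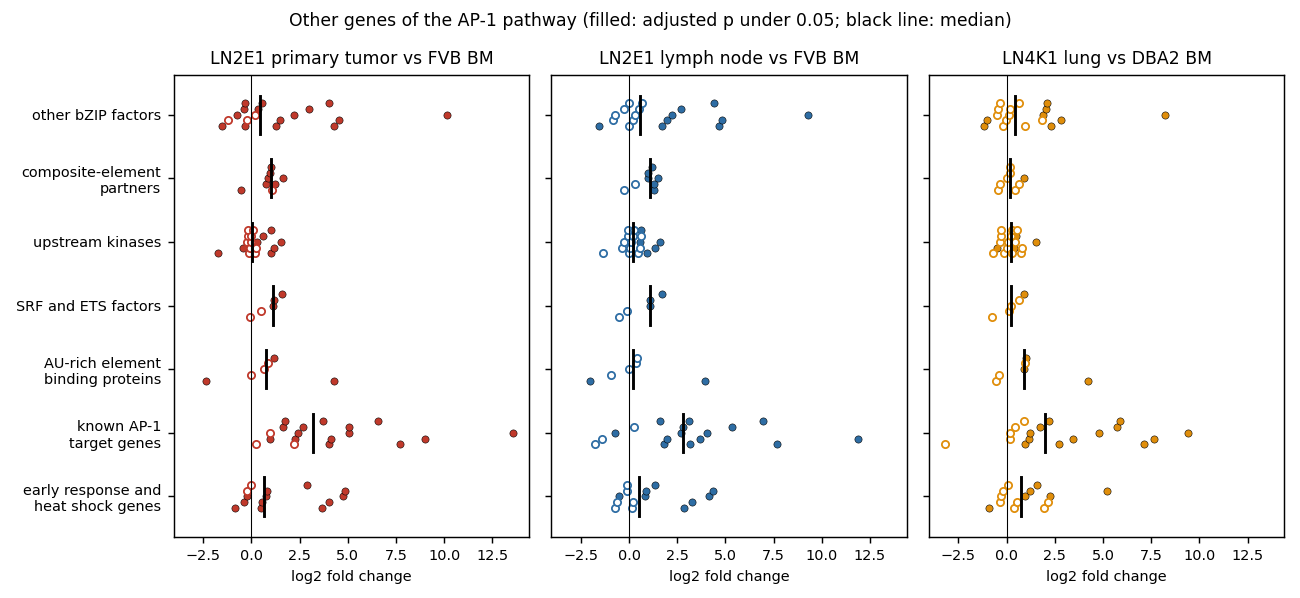
Log2 fold change of every tested gene of the 7 lists (points, filled where the adjusted p was under 0.05) in the 3 comparisons of TIMs with BM IMs, with the list's median as a black line. The AP-1 target list has medians of 3.20, 2.82 and 1.98, and the kinase list has medians of 0.03, 0.23 and 0.24.

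The 2 genes with the pattern most like each of the 9 were taken from 8016 genes by the root mean square difference between mean-centred group means of log2 CPM over the 5 groups. For Jun they were Arhgef37 (0.089) and Dusp1 (0.118), against a median of 0.639 over all 8016 genes. Genes picked as nearest lie below such a median by the choice itself, so the medians give only a scale. Dusp1 encodes a MAP kinase phosphatase. For Junb they were Gpr146 (0.125) and Tmem176b (0.157), with a median of 0.876, and for Fos Zfp790 (0.102) and Zdhhc12 (0.186), with a median of 0.854. Atf3 was nearest to Hlx (0.092) and to Osm, the cytokine oncostatin M (0.164). Batf was nearest to Ift57 (0.061) and Pak1ip1 (0.075), Jund to Avpi1 (0.140) and Cd80 (0.167), Fosb to Palm (0.052) and Dbr1 (0.107), and Fosl1 to Plk3 (0.357) and Cd9 (0.393). Fosl2 was nearest to H2-Q1 (0.073) and H2-K1 (0.102), class I genes of a family whose reads can be split between members.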

How the data were processed

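RNA was measured in 21 libraries, prepared with an ultra-low input SMARTer kit and Nextera XT and not stranded. The deposited values are raw counts per gene. The authors trimmed reads with BBDuk, aligned them to mm10 with BBMap and counted genes with featureCounts 1.5.2. The annotation and counting settings are not given in the sources used here.

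The libraries of each comparison were fitted apart from the others with edgeR 4.0.16 in R 4.3.3 (TMM scaling, filterByExpr with a minimum count of 10 and a total of 15, robust quasi-likelihood test, Benjamini-Hochberg adjustment). Models were compared by an interaction over 4 groups. Standard errors were taken as the absolute log2 change over the square root of F and are approximate. Fold changes with 3 counts or fewer in every BM IM library of a comparison were not given. Likeness used log2 CPM with a prior count of 2. Loci came from the GRCm38 annotation, which matched 93.0% of the 23420 symbols, and promoters from RefSeq.

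The text names the 9 genes, up to 3 genes per list with the largest change among those that passed, and 2 genes most like each of the 9, and genes named for a small count or as an exception were chosen after their values were seen. A further gene that this rule picks is not reported here. The genes and lists were chosen with earlier results of these data known. DESeq2 1.42.0, other scaling, other filters, a fit over all groups, a replicate block and leaving out each library were tried. The fit was tested on simulated data.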

Additional observations from a re-analysis of the deposited data

Results flagged for a closer look

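Of 27 groups of 5 libraries checked, 5 held a library set apart from the rest by Dixon's criterion, where chance gives about 1 in 20. LN4K1 lung TIM replicate 3 was low for Fos, at 4965 CPM against 9867 CPM in the nearest library (gap over range 0.802), and for Fosl1, at 0 CPM against 0.692 CPM (0.743). Lymph node TIM replicate 1 was high for Fosb, at 56.2 CPM against 23.3 CPM (0.786). Primary tumor TIM replicate 3 was high for Fosl2, at 74.5 CPM against 57.0 CPM (0.869), and for Junb, at 3957 CPM against 3640 CPM (0.767). LN4K1 lung TIM replicate 3 and lymph node TIM replicate 1 are also the libraries that correlated least with the rest of their groups.

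The Batf change differed between the models, with an interaction of -0.66 (edgeR adjusted p = 0.00476). Batf was higher in 5 of 5 LN4K1 lung TIM libraries than in any DBA2 BM IM library.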

How the results depend on the processing

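The replicate numbers did not pair the libraries (same-number correlations between -0.154 and 0.084), although in lymph node TIMs and FVB BM IMs each of the 3 shared numbers correlated best with its own, a hint from the data and not the design. With the replicate number as a block, the number of the 9 genes that were higher was 4 in primary tumors, 3 in lymph nodes, 3 in LN4K1 lungs and 3 in DBA2 against FVB BM IMs, and the number lower was 3 in lymph nodes against primary tumors and 1 for the interaction. Of all genes, 23.1%, 16%, 5.07% and 10.9% were higher in these comparisons, and 2.14% lower between the sites and 10.2% for the interaction. Jun in primary tumors (adjusted p = 0.0902), Fosl1 in lymph nodes (0.173) and Atf3 in LN4K1 lungs (0.104) did not pass with the block, and Jund in LN4K1 lungs (0.0197) and Jun in DBA2 against FVB BM IMs (0.0298) did. It turned the LN4K1 values of Nfatc2 to -0.054, Elk1 to -0.21 and Elk4 to -0.071.

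Under the study's thresholds the number higher was 2 in primary tumors and 0 in lymph nodes, LN4K1 lungs and DBA2 BM IMs, and the number lower was 0 between the sites and for the interaction. Applied to DESeq2 with shrunken values (added after seeing the data), they gave 3 higher in primary tumors, 2 in lymph nodes, 1 in LN4K1 lungs and 0 in DBA2 BM IMs, and 1 lower between the sites, where 18.8%, 11.5%, 6.36% and 3.27% of all genes were higher and 1.54% lower. In LN4K1 lungs the number higher was 5 in the fit over all 5 groups and with DESeq2, shrunken or not, and 6 without both libraries numbered 3 (chosen after seeing the data), which gave 2 lower for the interaction. The share of all genes higher in LN4K1 lungs was 15.6% in the fit over all groups, 19.3% with DESeq2 and 15.6% without both libraries, against 13.9%, and 13.7% were lower for the interaction without both libraries. DESeq2 also gave 7 higher in primary tumors, adding Jund (DESeq2 adjusted p = 0.0275) and Batf (0.0437), where 36.6% of all genes were higher. Requiring 10 counts in every library gave 1 lower in DBA2 BM IMs (Fosl1, adjusted p = 0.0499), where 10.5% of all genes were lower. This filter left Fosl1 out of the LN4K1 and interaction fits. In the fit over all groups, Fosl2 in primary tumors (0.0561), Jund in lymph nodes (0.142), Jun between the sites (0.1) and Fosl2 between the strains (0.306) did not pass, and Jund in primary tumors did (0.0397). Without both libraries numbered 3 the interaction was -0.001 for Fosb, -0.24 for Jun and -0.29 for Atf3, and that of Fos passed (-0.96, adjusted p = 0.00541). DESeq2 size factors and DESeq2 each gave an interaction of 0.026 for Junb. These are adjusted p values of edgeR unless named.

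Leaving out 1 library at a time, the number higher was 5 to 6 in primary tumors, 2 to 4 in lymph nodes, 2 to 5 in LN4K1 lungs, 0 to 1 between the sites and 0 to 2 between the strains, and the number lower was 0 to 1, 1, 0, 2 to 3 and 0 to 1, and 1 for the interaction. Of all genes, 28.6% to 33.3%, 14.1% to 23.6%, 7.91% to 20.2%, 3.02% to 7.4% and 4.64% to 19.4% were higher in these fits. The shares lower were 22.7% to 29.0%, 10.5% to 22.1%, 7.19% to 16.9%, 3.52% to 8.79% and 3.77% to 17.0%, and 9.03% to 15.2% for the interaction. The gene lower in primary tumors was Fos. The values that changed sign had not passed with all libraries. In primary tumors Fosb ranged from -0.28 to 0.55. In lymph nodes Fosb ranged from -0.087 to 0.898, Jun from -0.089 to 0.301 and Atf3 from -0.025 to 0.38. In LN4K1 lungs Fos ranged from -0.04 to 0.42, Fosb from -1.88 to 0.18, Jun from -0.039 to 0.857, Nfatc2 from -0.12 to 0.20 and Elk4 from -0.044 to 0.303. Between the sites Fosb ranged from -0.10 to 0.53 and Batf from -0.078 to 0.021. The interaction ranged from -0.16 to 1.90 for Fosb, -0.451 to 0.015 for Fosl2, -0.033 to 0.85 for Jun, -0.20 to 0.10 for Junb, -0.99 to 0.20 for Jund and -0.21 to 0.44 for Atf3. The causes were not tested. For the named genes of the lists, 882 alternative values kept their direction and side of the threshold, 27 lost the call, 23 gained it and 8 changed sign. With a prior count of 0.5 the genes nearest to Fosl1 were others. Shrunken DESeq2 values were not run for the interaction.

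At these depths Fosl1 rests on few counts in BM IMs (14 to 79 per library), whereas the others do not. With 3 BM IM libraries per strain, 1 library sets several calls, and replicates described as technical carry no spread between animals.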
